A study of Saccharomyces cerevisiae with 2 samples.

Results

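The proline tRNA genes of the yeast nucleus were followed in S phase cells of a WT strain and of a cdk1-as1 mutant. They were taken from the table that sets the strains side by side, as the rows whose name begins with tP(UGG) or tP(AGG) and whose locus is not mitochondrial. This gave 7 genes, out of 252 tRNA genes listed over all the values used, 5 with the anticodon UGG and 2 with the anticodon AGG. Small RNA was sequenced from 1 library per strain after cells had been held in G1 with α factor (15 mg/L for 3 h) and released until S phase, as judged by microscopy. The labels allow release into YPD alone or into YPD with nocodazole (10 mg/L) and do not say which was used for these cells. The WT strain carries normal CDK1. In cdk1-as1 the gatekeeper phenylalanine of Cdk1 at position 88 is a glycine, which lets a bulky inhibitor into the ATP pocket but also weakens the kinase without any inhibitor, and the labels list none for these cells. The tables used hold tRNA genes only, so neither strain label could be checked against other RNAs. With 1 library per strain no difference between the strains was tested, and every difference below is between these libraries.

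Proline tRNA carries proline to the ribosome. The first base of the AGG anticodon is changed to inosine in the tRNA. Which proline codons the AGG and UGG anticodons each read was not examined. RNA polymerase III makes tRNA from promoter elements inside the gene, the A box and the B box, and transcription ends in a run of T. In yeast the nuclear UGG genes have an intron directly after the base that follows the anticodon. It is cut out of the precursor by the tRNA splicing endonuclease and the exons are joined by a ligase, whereas the AGG precursor has no intron to be removed. Several of the genes were named SUF, for suppressor of frameshift, because mutants of them read an extra base in runs of C.

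The UGG genes differed from each other almost only in the intron, and the sequences are shown because they determine which fragments can be told apart. Spliced tRNA sequences are given 5′ to 3′ as DNA, from the RefSeq sequence of assembly R64, with the anticodon (bases 33 to 35) in capitals. The spliced sequence of tP(UGG)M was the same in tP(UGG)F, tP(UGG)H and tP(UGG)O1.
tP(UGG)M: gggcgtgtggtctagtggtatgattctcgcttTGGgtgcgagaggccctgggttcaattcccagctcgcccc
tP(AGG)C: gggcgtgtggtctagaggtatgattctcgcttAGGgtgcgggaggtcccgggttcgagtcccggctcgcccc
The spliced tP(UGG)O3 differed from that of tP(UGG)M at 1 of 72 bases, T19A counted from the 5′ end, just behind the A box. tP(AGG)C and tP(AGG)N were identical over their 72 bases and differed from tP(UGG)M at 8 of them, T16A, T33A, A41G, C46T, T49C, A56G, T58G and A63G, of which T33A is the change of anticodon.

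The introns were 30 to 33 nt long and followed base 36. They are printed with the loop in capitals, that is the bases enclosed by the longest run of pairs (Watson-Crick or G with T) that the intron can form with itself.
tP(UGG)F: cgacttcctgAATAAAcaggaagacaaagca
tP(UGG)H: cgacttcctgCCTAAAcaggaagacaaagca
tP(UGG)M: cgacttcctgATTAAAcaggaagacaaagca
tP(UGG)O1: cgacttcctgATTAAcagggggacaaagca
tP(UGG)O3: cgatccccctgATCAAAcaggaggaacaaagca
The loop alone separated the genes F, H and M. Counted from the first base of the intron of tP(UGG)M, tP(UGG)F carried T12A and tP(UGG)H carried A11C and T12C. The paired arms were 7 bases long in these 3 genes and in tP(UGG)O1, which had a loop of 5 bases and 3 edits from tP(UGG)M, and 4 bases long in tP(UGG)O3, which had 6 edits. A fragment that lies in the exons therefore fits F, H, M and O1 equally, and among these 4 only a fragment that reaches the differing bases of the intron can tell them apart, while tP(UGG)O3 can also be told by T19A.

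**Figure D1:**
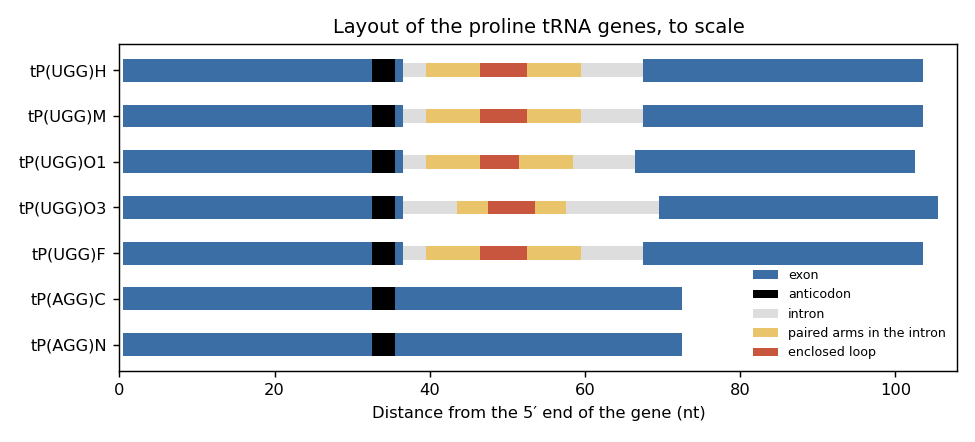
Layout of the 7 genes drawn to scale from the 5′ end of the gene (x axis, nt), with exons, anticodon, intron, the paired arms of the intron and the loop they enclose. The UGG genes have introns of 30 to 33 nt after base 36 and the AGG genes have none.

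The annotation of R64 holds 12 nuclear proline tRNA genes, 10 with an intron and 2 without. The other 5, all with an intron, are TRN1 on chromosome I, SUF11 on chromosome XV and the genes at 92548 to 92650 on chromosome XII and at 547094 to 547196 and 568115 to 568217 on chromosome XIV, and they are not analysed here. The 2 on chromosome XIV have the whole sequence of tP(UGG)H, intron included, and TRN1 has that of tP(UGG)M, while tP(UGG)F, tP(UGG)O1 and tP(UGG)O3 are single copies. Whether fragments of these identical genes were counted under tP(UGG)H and tP(UGG)M is not stated by the labels or the methods. Over all nuclear intronic genes in the tables, the 73 pairs with the same exons but different introns all had different values, and of 75 pairs identical throughout, 53 shared their values. Of 844 identical pairs of intronless genes 419 shared their values. Identical genes were thus often listed with different values, so different values alone do not show that fragments could be told apart. This limits the separate levels, order and shares of the UGG genes below.

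tP(UGG)H (SUF8, chromosome VIII from 388893 to 388995, minus strand) had the highest level of the family in WT cells. Its FPKM (by name, fragments scaled to gene length and library size) was 114944 in WT and 41271 in cdk1-as1. The estimated counts listed beside these values were 45.5 and 21.6. The level in the mutant was 35.9% of that in WT, a log2 ratio of −1.48. In counts the log2 ratio was −1.07. Its 95% binomial interval of −1.84 to −0.27, which covers counting error only, lay below 0. The FPKM values were not the listed counts scaled by length and library alone. tP(UGG)H, tP(UGG)M and tP(UGG)F are all 103 nt long. Yet 1000000 FPKM stood for 396, 415 and 501 counts respectively in the WT library. In the mutant library it stood for 523, 472 and 1355. Ratios in FPKM and in counts are therefore given side by side.

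tP(UGG)M (SUF7, chromosome XIII from 196068 to 196170, minus strand) had nearly the same level as tP(UGG)H in WT and the highest of the family in the mutant. It had 109917 FPKM in WT and 69159 FPKM in cdk1-as1, from 45.7 and 32.7 counts. The log2 ratio was −0.67 in FPKM (62.9% of WT) and −0.48 in counts, with an interval of −1.17 to 0.20. It was the UGG gene nearest to its WT level, and its unscaled count did not differ from that in the WT library beyond counting error.

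tP(UGG)O1 (chromosome XV from 301097 to 301198, plus strand) had 77243 FPKM in WT and 17552 FPKM in cdk1-as1, from 27.9 and 8.60 counts. Its log2 ratio was −2.14 in FPKM (22.7% of WT) and −1.70 in counts (interval −2.91 to −0.51). tP(UGG)O3 (chromosome XV from 980683 to 980787, plus strand), the gene with the changed base in the tRNA itself and the longest intron, had 53823 FPKM in WT and 14182 FPKM in cdk1-as1, from 20.7 and 5.97 counts. Its log2 ratio was −1.92 in FPKM (26.4% of WT) and −1.79 in counts (interval −3.41 to −0.45). Both genes were about 4 times lower in the mutant library in FPKM, at 4.40-fold and 3.80-fold, and both intervals of the unscaled counts lay below 0.

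tP(UGG)F (SUF9, chromosome VI from 101376 to 101478, plus strand), which differs from tP(UGG)M by the single base of T12A, was the lowest UGG gene in both libraries. It had 12729 FPKM in WT and 246 FPKM in cdk1-as1, a log2 ratio of −5.69 and the lowest of all 54 intronic tRNA genes with values in both libraries. The ratio rests on 6.38 counts in WT and 0.333 counts in cdk1-as1. In counts the log2 ratio was −4.26, and its interval, with the mutant count rounded to 0, has no lower end and an upper end of −0.24, so the size of the drop is not determined at this depth. FPKM and count were also not in step for this gene in the mutant. It had 501 counts for every 1000000 FPKM in WT, within the range of 307 to 529 among 31 other intronic genes with at least 10 counts, but 1355 in cdk1-as1, where 28 such genes had 393 to 722.

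The intronless genes tP(AGG)C (SUF2, chromosome III from 123577 to 123648, minus strand) and tP(AGG)N (SUF10, chromosome XIV from 631846 to 631917, minus strand) are identical in sequence and were listed with identical values, so they amount to 1 measurement. Each had 12837 FPKM in WT and 7904 FPKM in cdk1-as1, a log2 ratio of −0.70 (61.6% of WT). The counts were 2.97 and 0.754 per gene, a log2 ratio of −1.98, and summed over the copies 5.94 and 1.51 with an interval of −4.93 to 0.90. The FPKM and the count of the AGG genes thus gave different ratios, and a difference between the libraries in unscaled counts was not detectable at this depth. In cdk1-as1 the AGG genes had 95.4 counts for every 1000000 FPKM, against 316 to 321 in the 9 other nuclear genes of 72 nt with at least 10 counts. In WT they had 231 against 223 to 270 in 19 genes. The 9 genes are all glutamate genes, most of them copies listed with identical values, and the 19 genes also include such copies. These ranges therefore rest on fewer separate measurements than genes.

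**Figure D2:**
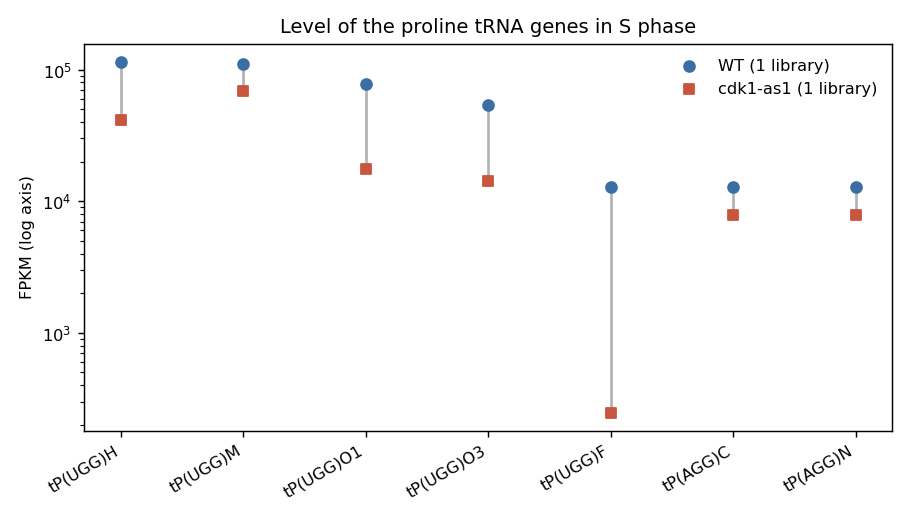
FPKM (y axis, log scale) of each proline tRNA gene (x axis) in the WT library (circles) and the cdk1-as1 library (squares). All 7 genes lie lower in cdk1-as1, least so tP(UGG)M and the AGG genes and most so tP(UGG)F, which falls from 12729 to 246 FPKM.

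**Figure D3:**
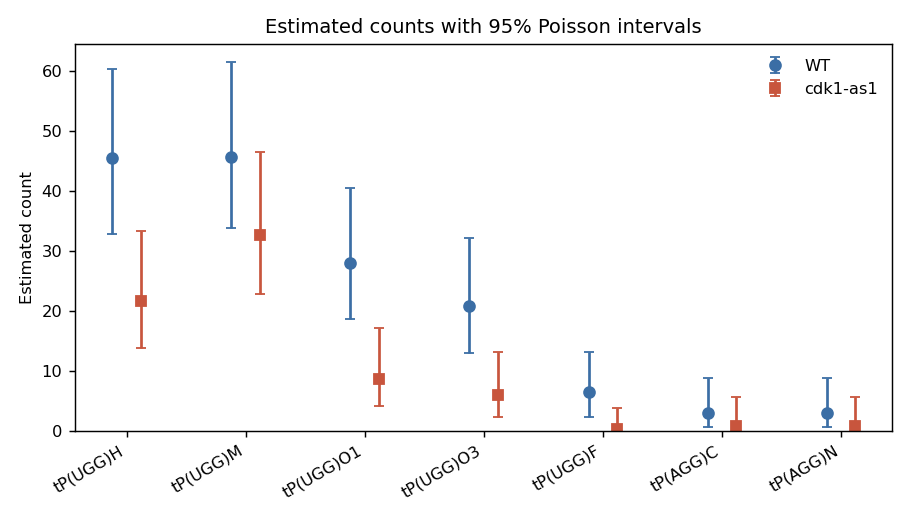
Estimated counts (y axis) of each proline tRNA gene in both libraries with 95% Poisson intervals of the rounded counts. tP(UGG)H and tP(UGG)M have at least 21.6 counts in each library, whereas tP(UGG)F and the AGG genes have at most 6.38.

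The order of the levels in WT was tP(UGG)H, tP(UGG)M, tP(UGG)O1, tP(UGG)O3, the AGG genes and tP(UGG)F, and in cdk1-as1 it was tP(UGG)M, tP(UGG)H, tP(UGG)O1, tP(UGG)O3, the AGG genes and tP(UGG)F. The order thus differed at the top, where tP(UGG)H was 1.05 times tP(UGG)M in WT and 0.597 times it in cdk1-as1. These neighbours did not differ beyond counting error in either library, the log2 ratio of their counts having an interval of −0.66 to 0.59 in WT and of −1.43 to 0.24 in cdk1-as1. The same held for tP(UGG)O1 over tP(UGG)O3, with intervals of −0.45 to 1.30 and −1.07 to 2.36. In cdk1-as1 both tP(UGG)H (0.11 to 2.59) and tP(UGG)M (0.78 to 3.12) exceeded tP(UGG)O1 beyond counting error. In WT their intervals over tP(UGG)O1 were nearly the same, −0.03 to 1.42 and 0.01 to 1.45. The lower ends differ in sign because WT counts of 45.5 and 45.7 were rounded to 45 and 46. No contrast between tP(UGG)H and tP(UGG)M, or between the libraries, is drawn from that sign. At the bottom, the AGG genes and tP(UGG)F rest on too few counts to be ordered.

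Within the UGG genes the mutant library held relatively more tP(UGG)M and less of the 3 single copy genes. tP(UGG)M made up 29.8% of the summed UGG FPKM in WT and 48.6% in cdk1-as1. In counts its share was 31.2% (95% Clopper-Pearson interval 24.1 to 39.7) and 47.2% (35.6 to 60.2), and these intervals overlap. Overlap of separate intervals, here and below, does not show that shares are equal, and no difference between shares was tested. tP(UGG)H had nearly the same share in both, with 31.2% and 29.0% of FPKM and 31.1% and 31.2% of counts. tP(UGG)O1 had 21.0% and 12.3% of FPKM, tP(UGG)O3 had 14.6% and 9.96%, and tP(UGG)F had 3.45% and 0.173%. tP(UGG)H and tP(UGG)M, the genes with identical copies elsewhere in the genome, together made up 62.4% of UGG counts in WT (53.9 to 70.2). In cdk1-as1 they made up 78.5% (66.7 to 87.3), and these intervals overlap. The larger joint share came from tP(UGG)M and not from tP(UGG)H.

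**Figure D4:**
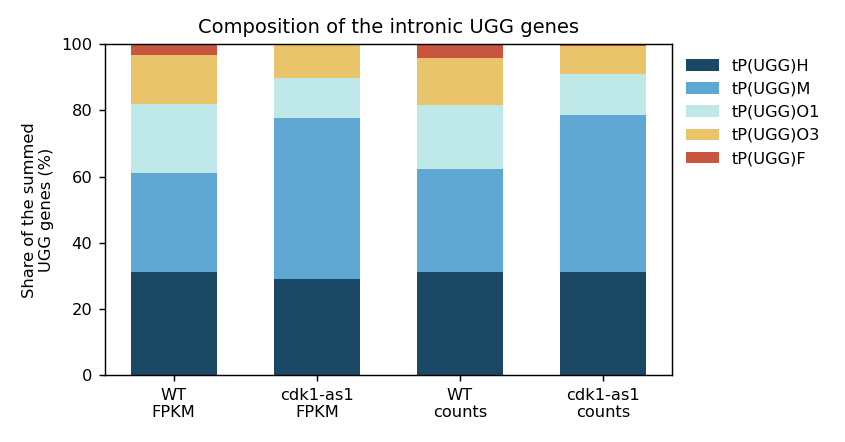
Share of each UGG gene in the summed UGG genes (y axis, %) in WT and cdk1-as1, by FPKM and by estimated count. The share of tP(UGG)M is larger in cdk1-as1 (48.6% against 29.8% of FPKM) and that of tP(UGG)H is nearly the same.

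All 5 UGG genes and both AGG genes were lower in cdk1-as1, in FPKM as in counts. This is close to the rest of the tRNA genes, as of the 184 other nuclear genes with values in both libraries 90.8% were lower in FPKM and 82.1% in counts. Copies listed with identical values were counted gene by gene, here and in the shares, medians and places below. The 184 genes form only 62 sets of values, so genes with many copies weigh more, and the AGG genes likewise count as 2 of the 7. More than 2-fold lower were 4 of the 7 proline genes, namely tP(UGG)F, tP(UGG)H, tP(UGG)O1 and tP(UGG)O3, against 67.4% of the other nuclear genes. Summed FPKM of nuclear tRNA in cdk1-as1 was 42.1% of that in WT, and summed counts were 52.1% of those in WT. Scaling the libraries to equal nuclear totals thus raises each log2 ratio by 1.25 in FPKM and by 0.94 in counts. It makes the totals equal and no more. The median log2 ratio in FPKM was then 0.53 for the other intronic genes and −0.41 for the other intronless ones. With equal FPKM totals 4 of the 5 UGG genes remained lower, tP(UGG)M rising to 0.58, and neither AGG gene did (0.55, but −1.04 in counts at equal totals), against 63.6% of the other nuclear genes, 26.5% of the other intronic and 77.0% of the other intronless ones. In counts the interval of each of the 7 genes included the ratio of the summed nuclear counts, −0.94, so none was set apart from the nuclear total beyond counting error.

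In FPKM 4 of the 5 UGG genes, all but tP(UGG)M, lay below the median of the other genes that share their processing, and the AGG genes above theirs. The other nuclear tRNA genes with an intron, which need the same endonuclease and ligase, were lower in 42 of 49 cases (85.7%) with a median log2 ratio of −0.72, and 17 of them (34.7%) were more than 2-fold lower. The UGG genes had a median of −1.92, with 4 of 5 more than 2-fold lower, and among the 54 intronic genes, ordered from the lowest ratio, tP(UGG)F was number 1, tP(UGG)O1 number 7, tP(UGG)O3 number 8, tP(UGG)H number 10 and tP(UGG)M number 35. Among genes with at least 5 counts in a library the median of the other intronic genes was −0.99 (37 genes) and that of the UGG genes was again −1.92. Of these 37 other intronic genes 36 were lower and 16 were more than 2-fold lower, against 4 of the 5 UGG genes more than 2-fold lower. The other intronless genes were lower in 125 of 135 cases (92.6%) with a median of −1.65, and 107 of them (79.3%) were more than 2-fold lower. The AGG genes, at −0.70, were nearer to WT than that median, at place 122 of 137 intronless genes from the lowest ratio. In counts the AGG ratio of −1.98 lay near the median of the other intronless genes, −2.23, and below those of tP(UGG)H, tP(UGG)M, tP(UGG)O1 and tP(UGG)O3, so the order of AGG and UGG depended on the unit.

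**Figure D5:**
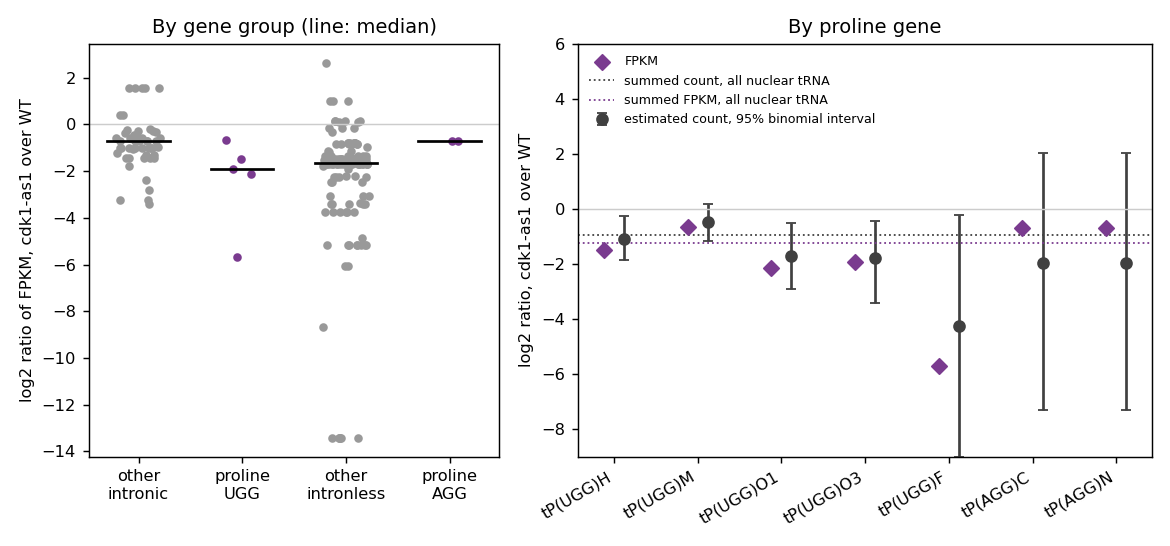
Log2 ratio of cdk1-as1 over WT (y axes): at the left in FPKM for the proline genes and the other nuclear tRNA genes by group, with the median as a line, and at the right for each proline gene in FPKM (diamonds) and in counts (circles, 95% binomial interval), with dotted lines for the summed nuclear tRNA. The UGG median of −1.92 lies below that of the other intronic genes (−0.72), and each count interval reaches the dotted line of the summed counts; the interval of tP(UGG)F runs off the lower edge.

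As a family the proline genes followed the nuclear tRNA total. Their summed FPKM was 394329 in WT and 158218 in cdk1-as1, or 40.1% of WT, and they made up 3.88% and 3.70% of nuclear tRNA FPKM. In counts they made up 5.27% (interval 4.48 to 6.14) and 4.69% (3.70 to 5.91), and these intervals overlap. Proline stood at place 9 among 20 amino acids by summed FPKM in WT and at place 8 in cdk1-as1. The UGG genes summed to 368656 FPKM in WT and 142410 FPKM in cdk1-as1, a log2 ratio of −1.37, and to 146 and 69.2 counts, a log2 ratio of −1.08 (interval −1.52 to −0.66). They held 93.5% of proline FPKM in WT and 90.0% in cdk1-as1, and the AGG genes held the rest. In counts the UGG share went the other way, from 96.1% (interval 91.6 to 98.5) to 97.9% (90.2 to 99.7), and these intervals overlap.

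The genes nearest to each proline gene in both levels were sought among 62 sets of other nuclear tRNA genes, by the distance between log2 FPKM values over the 2 libraries. tL(CCA)D, an intronic leucine gene, was the nearest to both tP(UGG)H (distance 0.36) and tP(UGG)M (0.43), with 104006 and 51773 FPKM. tP(UGG)O1 was nearest to the alanine gene tA(UGC)E and its copies (0.33; 77584 and 13943 FPKM), and tP(UGG)O3 to the aspartate gene tD(GUC)B and its copies (0.17; 48715 and 15005 FPKM), all intronless. The AGG genes were nearest to the methionine gene tM(CAU)J1 and its copy (0.38). tP(UGG)F had no close neighbour, the nearest being the glutamate gene tE(CUC)D at 0.70, itself with less than 1 count in each library. Likeness over 2 libraries is a description of these levels only.

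The elements that the polymerase machinery reads lay at the same places in the 7 genes. The A box began at base 8 in all 7, as an A box was found in all 239 nuclear genes of the tables, and the B box, searched as GGTTCNANNCC on the coding strand of the spliced sequence, began at base 51 in all 7, against 67.4% of the 239 genes that hold these letters. The letters themselves differed between AGG and UGG genes, T16A lying inside the A box and A56G and T58G inside the B box. The first run of at least 5 T behind the gene was 7 bases long directly behind tP(UGG)M and tP(UGG)O3, 8 bases long from base 2 behind tP(UGG)F, 6 bases long from base 2 behind tP(UGG)O1 and from base 8 behind tP(UGG)H, and 5 bases long from base 7 behind tP(AGG)C and from base 11 behind tP(AGG)N. The median over the 239 genes was a run of 6 from base 4.

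Upstream sequence and neighbourhood varied more. The letters TATAAA, on either strand within 60 bases before the gene, were found for tP(UGG)F, tP(UGG)O1 and tP(UGG)O3, the UGG genes with the lowest ratios, and not for the other 4, against 13.0% of the 239 genes. The search was made after the ratios were known, and among the other nuclear genes the median log2 ratio was nearly the same with these letters (−1.50, 24 genes) and without them (−1.49, 160 genes). A long terminal repeat of a Ty retrotransposon, an element known to insert next to tRNA genes, lay 76 to 486 bases from the 5′ end of each of the 7 genes, and within 500 bases of 63.6% of the 239 genes. It was nearest for tP(UGG)O1 (76 bases), tP(AGG)N (81 bases) and tP(UGG)O3 (93 bases), and the distances did not follow the order of the ratios. In the annotation notes, tP(UGG)H, tP(UGG)M, tP(UGG)O1 and tP(UGG)O3 are marked as targets of zymocin, a toxin of Kluyveromyces lactis that cuts tRNA at the anticodon, and tP(UGG)F, tP(UGG)H, tP(UGG)M and both AGG genes as able to mutate to frameshift suppressors.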

How the data were processed

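The authors purified small RNA with a miRNA isolation kit, sequenced it as paired ends and used the Ensembl R64 genome; the submitters' processing notes name sacCer3. Neither labels nor methods name the aligner or the counter. The tables the authors deposited hold, per library, an estimated count, which need not be whole, and an FPKM value per tRNA gene. They state a normalization by spike-in RNA, but not how it entered these columns. The RPKM columns deposited side by side equalled FPKM for all 7 proline genes within 1e-05 of the value; the fold change, FDR and log columns there, the authors' own comparison, were not used. Nuclear genes summed to 2888 counts in WT (95% Poisson interval 2784 to 2995) and 1505 in cdk1-as1 (1430 to 1583).

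All 252 loci were found at the same positions in the R64 annotation of RefSeq, the assembly also called sacCer3, which gave introns and sequences. Log2 ratios used no pseudocount. Intervals are exact, at 95%, from rounded counts, and cover counting error only if counts are sequenced fragments. The interval was tested on simulated data in 200 runs, from which nothing is drawn here about estimated counts that need not be whole. No test between strains was possible. All 7 genes are named, with the nearest set of other nuclear genes to each, and annotated proline genes outside the tables by position. The members, lists and rules were chosen with earlier results of these data known. Alternatives were pseudocounts of 1, 100 and 1000, equal totals, counts for FPKM, the RPKM columns, at least 5 counts, spliced length and copies counted as 1. Python 3.11.15, pandas 2.3.3, scipy 1.17.1 and matplotlib 3.10.9 were used.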

Additional observations from a re-analysis of the deposited data

How the results depend on the processing

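Of the alternatives, pseudocounts of 1, 100 and 1000, the RPKM columns, the spliced length and a minimum of 5 counts (which leaves out the AGG genes) moved no ratio of a proline gene or sum beyond its counting interval, and the spliced length cannot change the ratio of a single gene. The interval of tP(UGG)F is wide, and a pseudocount of 1000 gave it −3.46. With equal nuclear FPKM totals the log2 ratio turned positive for tP(UGG)M (0.58), for tP(AGG)C and tP(AGG)N and for their sum (0.55), and moved toward 0 for the UGG sum (−0.12) and the UGG median (−0.68). With counts at equal totals tP(UGG)M lay at 0.46, the AGG genes and their sum at −1.04, opposite in sign to FPKM, the UGG sum at −0.14 and the UGG median at −0.76. In WT the proline share of nuclear tRNA was 5.27% in counts, and with identical copies counted as 1 it was 7.36% in WT and 6.32% in cdk1-as1. The UGG share of proline tRNA in counts was 96.1% in WT and 97.9% in cdk1-as1, a change opposite in direction to that in FPKM. The number of UGG genes lower in cdk1-as1 was 4 or 5 in all settings. No paired analysis was possible because there is 1 library per strain, and for the same reason no library could be left out. Depth limits tP(UGG)F and the AGG genes most, with at most 6.38 counts.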
